A study of Mus musculus with 8 samples.

Results

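The genes described here are those of the proteasome, the cell's main protease for proteins marked with ubiquitin. They were chosen by gene name: every row of the deposited table whose name begins with Psma, Psmb, Psmc, Psmd, Psme, Psmf or Psmg, without the pseudogenes named -ps, and with no fewer than 10 normalized reads in 4 or more of the 8 libraries. A normalized read is a read count divided by 1 factor per library. Of 54 names with such a beginning, 4 were pseudogenes and 3 had too few reads, which left 47 genes among 13638 that passed the same filter in a table of 54091. The 3 others were Psma8 and Psme2b, with at most 1 read in any library, and Psmb11, the catalytic subunit of the thymus, with 0 reads in every library.

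RNA came from the white part of the quadriceps of chow-fed male mice aged 11 to 14 weeks. The 4 control mice had the genotype Loxp/Loxp. The 4 Acot2 mKO mice lacked Acot2, a thioesterase that splits acyl-CoA in the mitochondrial matrix, through CKM Cre, a recombinase under the promoter of muscle creatine kinase that acts in striated muscle and leaves the gene intact in the other cells of the tissue. The labels name no Cre in the control mice, so recombinase and loss of Acot2 cannot be told apart. The animal numbers in the labels point to separate mice. They form 4 pairs of adjacent numbers, each a control and an Acot2 mKO mouse. Control replicates 1, 2, 3 and 4 are adjacent in number to Acot2 mKO replicates 2, 4, 3 and 1. The labels do not say what adjacent mice share. The main test and the permutation test did not use these pairs, and a fit blocked by them was an alternative.

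The proteasome consists of a barrel-shaped core particle and caps. The outer alpha rings of the core form its gate and the inner beta rings hold the catalytic sites. The regulatory particle binds ubiquitin chains, unfolds the substrate with a ring of ATPases and feeds it into the core. Muscle uses this route to break down myofibrillar proteins, and it is well known for its part in muscle wasting. Interferon and cells of the immune system replace the constitutive catalytic subunits by immunoproteasome subunits, which change the peptides made for MHC class I molecules.

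Recovered totals lay between 30415427 and 48834283 reads per library. Acot2 checked the labels: its normalized reads ran from 149 to 251 among controls and from 42.8 to 53.7 in the Acot2 mKO mice, a log2 difference of -2.13 (limma adjusted p = 0.000962). For the tissue label, 8 fast glycolytic fibre genes (among them Myh4, Actn3 and Pvalb) were summed. Their level was 5410600 to 6457100 normalized reads among controls and 5058300 to 6169900 in the Acot2 mKO mice. In every library this lay far above the sum of the slow fibre genes given next. No other muscle was compared, so the sum cannot tell the white part of the quadriceps from other fast muscle. Acot2 mKO replicates 3 and 4 stood apart by their slow fibre genes: the sum over 7 such genes was 6930 and 17892 normalized reads there, against 1610 to 2496 in the other 6 libraries. Control replicates 2 and 3 stood apart by their fat cell genes, 22856 and 9761 against 2531 to 4104 in the others. The counts and medians of both kinds of subunit are given with and without these libraries.

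The 47 genes comprised 7 of the alpha ring, 4 non-catalytic subunits of the beta ring, 3 constitutive catalytic subunits, 3 immunoproteasome subunits, 6 ATPases, 11 other subunits of the regulatory particle, 7 assembly chaperones, 4 activators and 1 inhibitor. The last gene, Psmc3ip, shares the prefix but encodes a recombination factor and is no subunit. Apart from the immunoproteasome, 31 of them encode constitutive subunits, 14 in the core and 17 in the regulatory particle.

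The 47 genes differed over more than 2 orders of magnitude when levels were taken per kilobase (kb) of exon. In the order of means over the 8 libraries, Psmb7 was highest with 4472 ± 330.4 normalized reads per kb (SD, n = 8), rank 235 among 13185 tested genes with a known exon length. Psme4 followed with 4174 ± 386 per kb, which overlaps Psmb7 within the spread. Psmc3ip was lowest with 29.5 ± 8.4 per kb. In the alpha ring Psma6 and Psma4 were highest, both with 2030 normalized reads per kb, and Psma2 (725) and Psma5 (942) were lowest.

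In the beta ring the highest were Psmb7 and Psmb6 (3598 per kb), which carry the trypsin-like and the caspase-like site. The lowest were Psmb9 with 33.7 ± 12 and Psmb8 with 66.7 ± 16.1 per kb, followed by Psmb10 with 148 ± 13.8. All 3 immunoproteasome subunits therefore lay below each of the 31 constitutive subunits, of which Psmb1 with 696 per kb was the lowest. Taken over its principal transcript alone, Psmb1 had 1357 per kb, so its place rests on the exons counted.

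In the regulatory particle Psmd2, a scaffold that receives ubiquitin-like domains, led with 3003 per kb, followed by Psmd6 with 2755. Psmd13 (783) and Psmd11 (812) were its lowest members. The ATPases differed least from each other, from 1456 per kb for Psmc4 to 2284 for Psmc3.

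Among the caps other than the regulatory particle, Psme4, a single-chain activator that binds the end of the core, exceeded Psme1 (624 per kb), Psme2 (407) and Psme3 (386), which form ring-shaped activators. Psmf1, an inhibitor of the core, had 85.0 per kb. The assembly chaperones all lay below the constitutive subunits, from 57.7 per kb for Psmd10 to 369 for Psmg2. Among the 13185 tested genes with a known exon length these ranked 8083 and 2749, so Psmg2 was not low among genes at large.

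**Figure D1:**
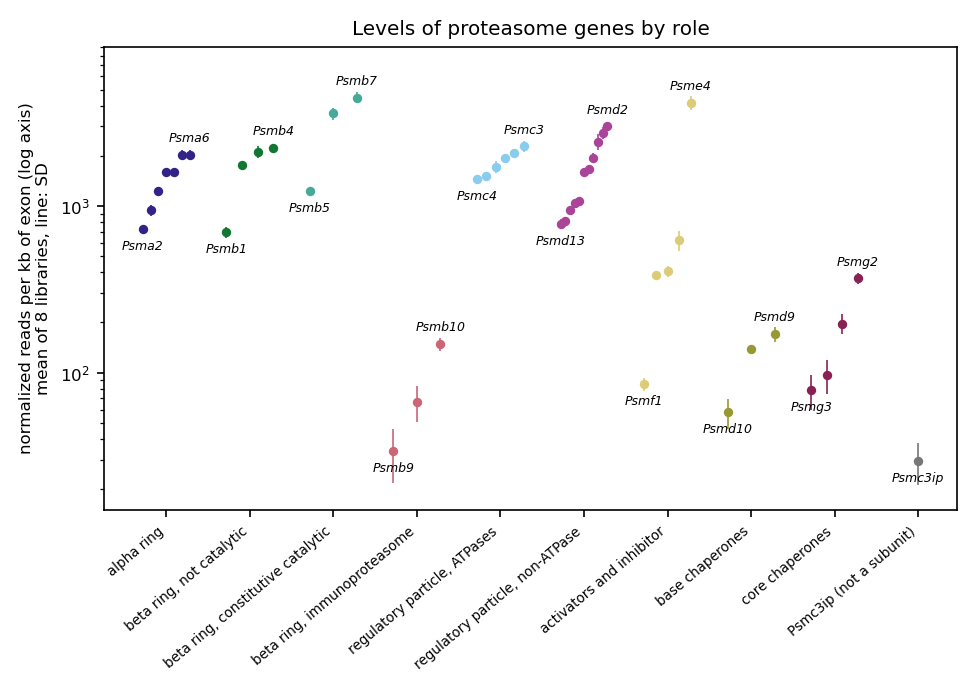
Level of each of the 47 genes as normalized reads per kb of exon on a log axis (points: mean of 8 libraries, lines: SD), by role. The 3 immunoproteasome subunits, between 33.7 and 148 per kb, lie below all constitutive subunits of both rings.

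The promoters of 3 catalytic subunits are shown, those in which an antioxidant response core or a gamma-activated site was found. Nfe2l1 and Nfe2l2 act on constitutive subunits through antioxidant response elements, and interferon acts on the immunoproteasome through gamma-activated sites and interferon response elements. The windows are the 250 bases before the RefSeq transcript start, on GRCm38.p6, 5′ to 3′ on the gene's strand. Capitals mark TGACNNNGC, the core of the antioxidant response element, in Psmb5 (chr14:54617996-54618245, minus strand) and Psmb6 (chr11:70525107-70525356, plus strand), and TTCNNNGAA, the gamma-activated site, in Psmb8 (chr17:34197945-34198194, plus strand).
Psmb5: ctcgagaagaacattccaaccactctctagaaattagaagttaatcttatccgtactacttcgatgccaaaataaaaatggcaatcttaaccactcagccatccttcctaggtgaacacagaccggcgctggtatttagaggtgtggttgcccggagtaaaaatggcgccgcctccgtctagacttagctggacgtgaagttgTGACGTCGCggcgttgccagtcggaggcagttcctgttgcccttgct
Psmb6: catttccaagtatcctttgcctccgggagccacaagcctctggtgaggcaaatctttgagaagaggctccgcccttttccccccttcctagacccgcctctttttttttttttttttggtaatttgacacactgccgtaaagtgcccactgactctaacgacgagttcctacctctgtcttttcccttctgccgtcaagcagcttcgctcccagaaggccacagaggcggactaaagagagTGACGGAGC
Psmb8: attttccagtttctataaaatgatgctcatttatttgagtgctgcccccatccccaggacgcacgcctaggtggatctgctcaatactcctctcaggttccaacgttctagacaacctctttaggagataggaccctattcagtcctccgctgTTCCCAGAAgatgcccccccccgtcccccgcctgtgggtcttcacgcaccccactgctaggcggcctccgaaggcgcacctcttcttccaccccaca

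The element in Psmb5 begins at position -47 and that in Psmb6 at -9, counted back from the transcript start, and the site in Psmb8 begins at -97. The windows of Psmb9 and Psmb10 held none of TGACNNNGC, TTCNNNGAA and GAAANNGAA. The RefSeq starts of Psmb8 and Psmb9 lie downstream of the GENCODE starts used for gene positions here. Their windows therefore lie inside the genes as annotated there, and those of Psmb5 and Psmb10 lie partly inside. Both strands were searched in the 40 of the 47 genes that the RefSeq promoter table held. TGACNNNGC was found in 5 of them (12.5%: Psmb5, Psmb6, Psmc6, Psmd12 and Psmd9), against 11.5% of windows of the same length over 27025 genes and 14.1% over the tested ones. TTCNNNGAA was found in 2 (Psmb8 and Psmg1), against 8.13% of all genes. The interferon response core GAAANNGAA was found in 3 (7.5%: Psmb3, Psmd4 and Psmd9), none of them an immunoproteasome subunit, against 8.18%. The CCAAT box, CCAAT, stood in 14 (35%), against 37.5%. For TGACNNNGC, GAAANNGAA and CCAAT the shares lay near those of other genes, and the counts are small.

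The comparison of genotypes asked whether the expression of proteasome genes in glycolytic muscle differed once Acot2 was lost. No proteasome gene passed the limma test: 0 of 47 had an adjusted p under 0.05, where 0.0147% of all tested genes, 2 of 13638, were called. No proteasome gene had an unadjusted p under 0.05 either, against 2.91% of the tested genes. The limma-voom test on the recovered reads also called 0 of them. Every adjusted p was 0.9995. The groups did not overlap for 1 of the 47 genes, Psmb2, a share of 2.13% against 1.92% of the tested genes.

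The differences were small and mostly on the positive side. The log2 fold change was above 0 for 35 of the 47 genes, with a median of 0.048, against 51.7% and a median of 0.0049 over all tested genes. Of the 31 constitutive subunits 27 lay above 0, with a median of 0.051, and their 95% confidence intervals together spanned 0.886-fold to 1.21-fold. Of the 3 immunoproteasome subunits 0 lay above 0, with a median of -0.06 and intervals that spanned 0.523-fold to 1.44-fold. Among the 2785 tested genes with as many reads as the constitutive subunits (a mean of 1104 to 8892), 60.8% lay above 0, with a median of 0.018. Genes of the same complexes moved together between libraries, as given below, so their signs are not independent. Without Acot2 mKO replicates 3 and 4, 31 of 31 constitutive subunits lay above 0 (median 0.067). Without control replicates 2 and 3, 22 did (median 0.018). Of the immunoproteasome subunits 2 of 3 lay below 0 in either case, with medians of -0.13 and -0.05. Leaving out Acot2 mKO replicate 2 moved their median to -0.26, and leaving out control replicate 1 moved it to -0.16. It turned to 0.0024 when control replicate 4 was left out, so it rests on single libraries.

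**Figure D2:**
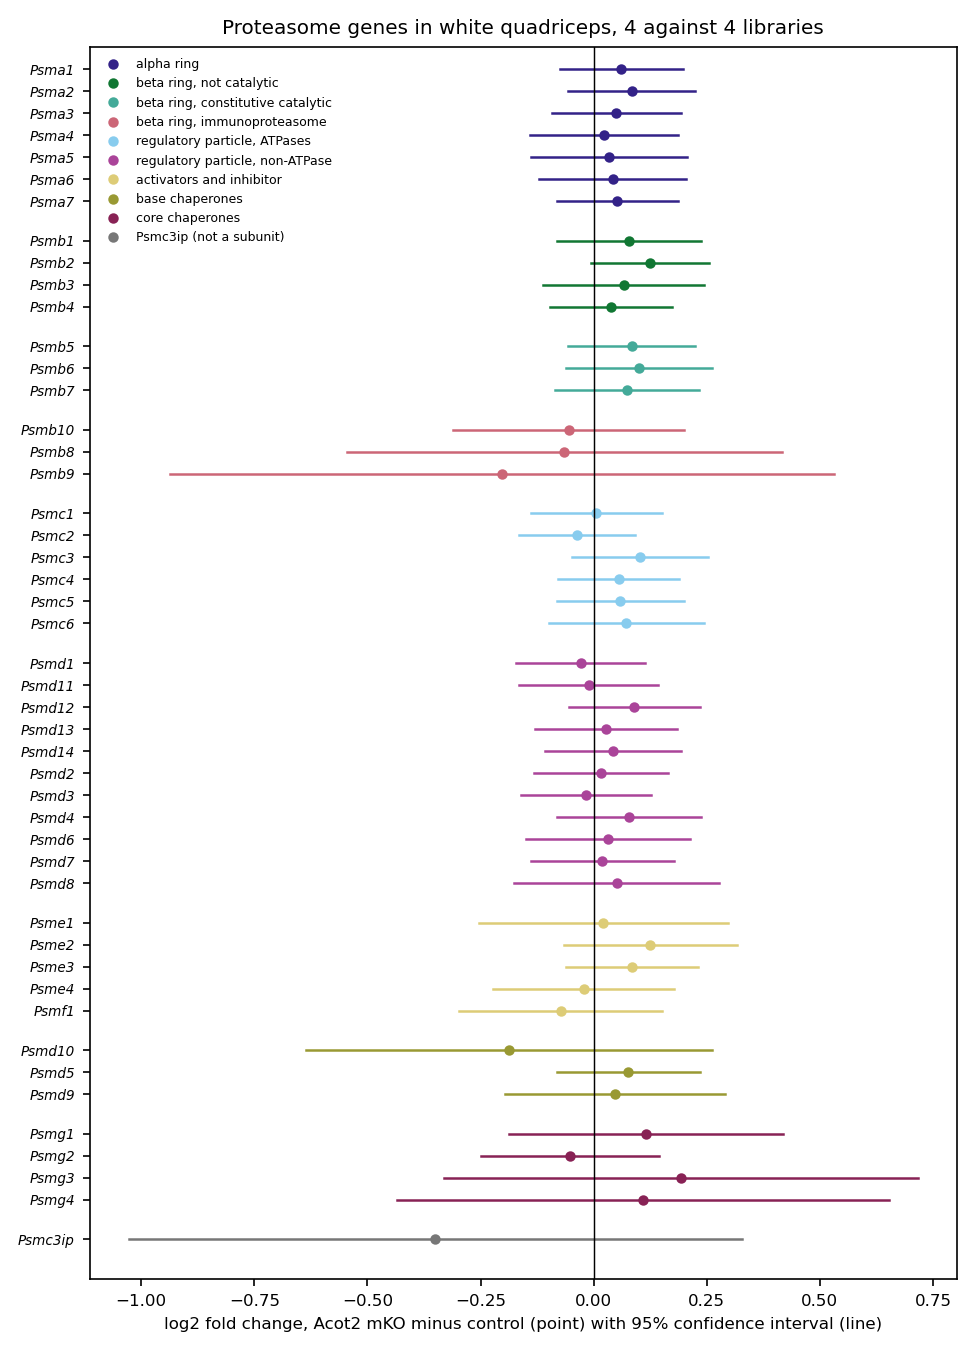
Log2 fold change of each of the 47 genes, Acot2 mKO minus control (points), with limma's 95% confidence interval (lines), by role. Every interval includes 0. The alpha ring and the constitutive beta ring lie above 0 throughout, and the 3 immunoproteasome subunits lie below it with wide intervals.

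All 7 genes of the alpha ring had positive differences that did not pass the test, from 0.02 for Psma4 to 0.084 for Psma2. Psma2 had 2196, 1901, 2048 and 2058 normalized reads in control replicates 1 to 4 and 2114, 2153, 2345 and 2080 in Acot2 mKO replicates 1 to 4. The highest value was Acot2 mKO replicate 3 and the lowest control replicate 2, and the groups overlapped. The means were 2051 ± 120 and 2173 ± 119 (SD, n = 4 each), a log2 difference of 0.08 (SE 0.06, 95% interval -0.06 to 0.22).

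Of the 4 non-catalytic beta subunits, Psmb2 had the smallest p of all 47 genes. It had 1447, 1431, 1446 and 1440 normalized reads in the control libraries and 1551, 1565, 1701 and 1479 in the Acot2 mKO libraries. The 4 control values lay close together and every Acot2 mKO value lay above them, with Acot2 mKO replicate 4 closest. The means were 1441 ± 7.24 and 1574 ± 92.8 (SD, n = 4 each), which makes a log2 difference of 0.13 (SE 0.06, 95% interval -0.0049 to 0.26, limma adjusted p = 0.9995). Psmb1, Psmb3 and Psmb4 gave log2 differences of 0.08, 0.07 and 0.04, none past the test.

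The constitutive catalytic subunits came next. Psmb6 had 2798, 2580, 2882 and 2811 normalized reads in control replicates 1 to 4 and 2981, 2792, 3379 and 2745 in Acot2 mKO replicates 1 to 4. Acot2 mKO replicate 3 was high and control replicate 2 low, and the other libraries of both groups overlapped. The log2 difference was 0.10 (95% interval -0.06 to 0.26), from a mean of 2768 ± 131 in control and 2974 ± 288 in Acot2 mKO muscle (SD, n = 4 each).

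Psmb7, the gene with the highest level per kb, had 5505, 4767, 4914 and 5021 normalized reads in control and 5251, 5664, 5644 and 4731 in Acot2 mKO libraries. The lowest value of all was Acot2 mKO replicate 4, and control replicate 1 lay among the highest. Between the genotypes the log2 difference was 0.07 (95% interval -0.09 to 0.23). In the annotation 405 exon bases of Psmb7 overlap Nek6 on the opposite strand.

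Psmb5, which carries the chymotrypsin-like site, had 1127, 1025, 1112 and 1024 normalized reads in control and 1111, 1169, 1177 and 1085 in Acot2 mKO libraries. The groups overlapped, with control replicates 2 and 4 lowest. The log2 difference was 0.08 (95% interval -0.06 to 0.22), from 1072 ± 55.3 to 1136 ± 44.7 (SD, n = 4 each). Of its stretches of 50 bases, 57.1% also occur in other transcripts, mostly the copy Gm3375, which had 0 reads.

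Among the immunoproteasome subunits, Psmb9 and Psmb8 varied more between mice than the constitutive catalytic subunits (highest over lowest library 3.47 and 2.06), while Psmb10 (1.26) did not exceed Psmb6 (1.31). Psmb9, the counterpart of Psmb6, had 22.1, 56, 47.8 and 76.8 normalized reads in control replicates 1 to 4 and 34.5, 46.5, 44.5 and 36.1 in Acot2 mKO replicates 1 to 4. All Acot2 mKO values lay inside the control range, whose ends were control replicates 1 and 4. The means were 50.7 ± 22.6 and 40.4 ± 5.96 (SD, n = 4 each), and the log2 difference was -0.20 (SE 0.33, 95% interval -0.94 to 0.53). Control replicate 1 set much of this value: without it the difference was -0.55 (unadjusted p 0.0455, limma adjusted p = 0.989), and without control replicate 4 it was 0.04.

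Psmb10, the counterpart of Psmb7, had 181, 208, 181 and 223 normalized reads in control and 183, 177, 216 and 187 in Acot2 mKO libraries. Control replicate 4 was highest and Acot2 mKO replicate 2 lowest, with the other libraries mixed. The log2 difference was -0.06 (95% interval -0.31 to 0.20).

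Psmb8, the counterpart of Psmb5, had 89.5, 134, 109 and 106 normalized reads in control and 76.6, 158, 91.3 and 105 in Acot2 mKO libraries. Both the highest and the lowest value came from the Acot2 mKO group, replicates 2 and 1. The means were 110 ± 18.5 and 108 ± 35.3 (SD, n = 4 each), a log2 difference of -0.06 (95% interval -0.54 to 0.42).

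Psmb9 and Psmb8 are neighbours on chromosome 17 of GRCm38, at 34181987 to 34187764 on the minus strand and at 34197721 to 34201454 on the plus strand. They flank Tap1, a peptide transporter of the same pathway, and 212 exon bases of Psmb9 overlap Tap1 on the opposite strand. Psmb10 lies apart, at 105935735 to 105938444 of chromosome 8, minus strand. The library kit keeps strand, but the sources used here do not say how strand was set in counting, so reads from these overlapping exons may be split differently.

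**Figure D3:**
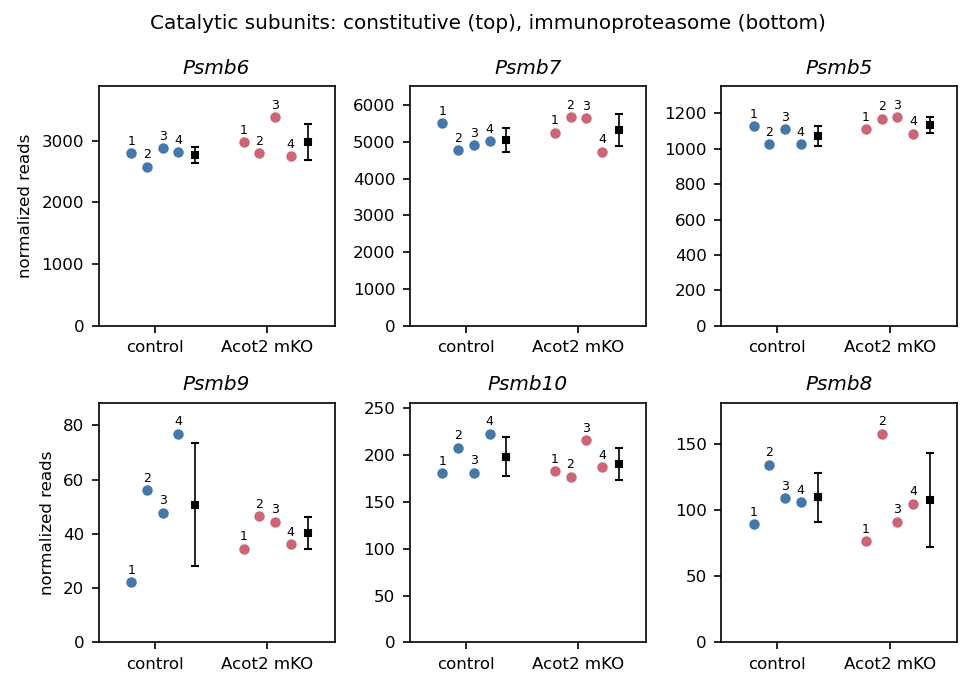
Normalized reads of the 6 catalytic subunits in each library (numbered points; squares with bars: mean and SD of 4), with axes from 0. Relative to their level Psmb9 and Psmb8 vary most between libraries, and the groups of all 6 genes overlap.

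Whether constitutive and immunoproteasome subunits responded differently was tested on the log2 ratio of each catalytic pair. The ratio of Psmb8 to Psmb5 was -3.29 ± 0.29 among controls and -3.44 ± 0.42 with Acot2 mKO (SD, n = 4 each), which differ by -0.15 (exact two-sided permutation p = 0.543 over 70 relabellings). For Psmb9 to Psmb6 the difference was -0.30 (exact permutation p = 0.514), and for Psmb10 to Psmb7 it was -0.13 (exact permutation p = 0.343). Adjusted over the 3 pairs, each of these exact permutation tests gave p = 0.543; the smallest raw p that 4 against 4 libraries allow is 0.0286. The test did not separate the kinds of subunit, and with this spread a difference could be missed.

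As a share of each pair per kb of exon, the immunoproteasome subunit was the minor one in all 8 libraries. Psmb8 made up 3.67% to 6.93% of Psmb8 and Psmb5 together. Psmb9 made up 0.465% to 1.59% of its pair with Psmb6, and Psmb10 2.70% to 3.78% of its pair with Psmb7. Acot2 mKO replicates 1 and 2 held the lowest and the highest share of Psmb8, so the range within that genotype covered the control range.

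Antigen presentation genes and white blood cell markers were set beside the immunoproteasome, since both kinds of gene go with it in other tissues. Of 13 antigen presentation genes, 10 lay below 0 (median log2 difference -0.27). B2m, the light chain of MHC class I, was at 1956 ± 378 normalized reads among controls and 1545 ± 245 in Acot2 mKO muscle. Tap1 was at 128 ± 46.0 and 80.1 ± 18.9, and H2-K1, a heavy chain, at 1570 ± 375 and 1239 ± 128 normalized reads (SD, n = 4 each). These 3 of the 13 genes had an unadjusted p under 0.05, against 2.91% of all tested genes. None passed the limma test (adjusted p = 0.9995 each). Tap1 was highest in control replicate 4. Control replicate 2 was highest for 7 of the 13 genes (53.8%), against 16.5% of all tested genes. That library also held the most fat cell reads; the part of fat tissue in these values was not tested.

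Of 21 white blood cell markers, 14 had enough reads, and 12 of these lay below 0 (median -0.13). Their summed level was 2143 to 2753 normalized reads among controls and 1380 to 3292 in Acot2 mKO muscle, so the control range lay within the other. T and B cell markers, among them Cd3e, Cd3g, Cd4, Cd8a, Ms4a1 and Cd79a, had too few reads to test, with Cd3e at 0 in 6 of 8 libraries. Acot2 mKO replicate 2 was lowest for 11 of the 14 markers, against 12.3% of all tested genes. It held the highest Psmb8 value and the lowest Psmb10 value, while Psmb9 lay inside its range there. In a piece of tissue, fewer cells of a type and less RNA per cell cannot be told apart. The part of white blood cells in the immunoproteasome values was not tested.

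The ATPases of the regulatory particle, Psmc1 to Psmc6, had log2 differences from -0.04 (Psmc2) to 0.10 (Psmc3), 5 of 6 above 0. Psmc3 had 4836, 4277, 4467 and 4414 normalized reads in control and 4865, 4905, 5248 and 4335 in Acot2 mKO libraries. Acot2 mKO replicates 1 to 3 were the 3 highest and replicate 4 was second lowest, so the groups overlapped. The means were 4499 ± 239 and 4838 ± 377 (SD, n = 4 each; 95% interval of the log2 difference -0.05 to 0.25).

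Of the 11 other subunits of the regulatory particle, 8 lay above 0 and 3 below (Psmd1, Psmd3 and Psmd11), with differences from -0.03 to 0.09. Psmd12, a lid subunit, had the largest difference and the smallest p. It had 2801, 2520, 2726 and 2605 normalized reads in control and 2729, 3021, 2995 and 2607 in Acot2 mKO libraries. Acot2 mKO replicates 2 and 3 were highest and the rest were mixed. Its log2 difference was 0.09 (95% interval -0.05 to 0.23). Psmd14, the deubiquitinase of the lid, gave 0.04, and Psmd4, a ubiquitin receptor, gave 0.08.

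The activators and the inhibitor did not differ past the test. Psme1 had 616, 589.8, 787 and 762 normalized reads in control and 611, 610.1, 809.6 and 764 in Acot2 mKO libraries. Replicates 3 and 4 of either group were high and replicates 1 and 2 low, so the genotypes overlapped fully (log2 difference 0.02, 95% interval -0.25 to 0.30). Replicate numbers only follow the order of the labels and do not match mice across the groups.

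Its partner Psme2 had 383, 402, 394 and 339.8 normalized reads in control and 382, 432, 436 and 407 in Acot2 mKO libraries. Control replicate 4 was lowest, Acot2 mKO replicates 2 and 3 were highest, and the groups overlapped in between. The log2 difference was 0.13 (SE 0.09, 95% interval -0.07 to 0.32). Of the 50-base stretches of Psme2, 59.3% also occur in other transcripts, mostly its copy Psme2b, which had at most 1 read.

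Psmf1 had 306, 328, 364 and 396 normalized reads in control and 329, 349.7, 343 and 299.6 in Acot2 mKO libraries. Control replicate 4 was highest and Acot2 mKO replicate 4 lowest, and the groups overlapped (log2 difference -0.07, 95% interval -0.30 to 0.15). Psme4, abundant in this muscle, was at 27324 ± 2987 and 26867 ± 2359 normalized reads (SD, n = 4 each), a log2 difference of -0.02.

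Of the assembly chaperones, 5 of 7 lay above 0, none past the test. Psmd5, which holds the base of the regulatory particle during assembly, had 629.6, 594, 576 and 578 normalized reads in control and 609, 632, 676 and 593 in Acot2 mKO libraries. Acot2 mKO replicates 2 and 3 and control replicate 1 were highest, and the others lay between 576 and 609. The log2 difference was 0.08 (95% interval -0.08 to 0.23). The other base chaperones gave 0.05 for Psmd9 and -0.19 for Psmd10. The chaperones of the core, Psmg1 to Psmg4, lay between -0.05 and 0.19, with intervals up to 0.72 for Psmg3, which had 41.2 to 98.4 normalized reads.

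The constitutive subunits varied between libraries as a group, and this went across the genotypes. Each gene was set against its own mean of the log2 values over the 8 libraries, and the median of the 31 genes was taken in each library. It was 0.06, -0.09, -0.01 and -0.06 in control replicates 1 to 4 and 0.02, 0.08, 0.11 and -0.10 in Acot2 mKO replicates 1 to 4. The scaling of the deposited values holds this median near 0 over all tested genes. Over the 2785 genes with as many reads it was 0.0017, -0.022, -0.0048 and -0.011 in the controls and 0.016, 0.024, 0.040 and -0.040 in the Acot2 mKO mice, so these genes shared the sign in every library at smaller sizes. Control replicate 2 was the lowest library for 14 of the 31 subunits (45.2%) and Acot2 mKO replicate 4 for 11 (35.5%). Over all tested genes they were lowest for 18.6% and 12.6%. Acot2 mKO replicates 3 and 2 were highest for 15 (48.4%) and 11 (35.5%), against 18.6% and 11.1% of all tested genes. By adjacent animal number, control replicate 2 and Acot2 mKO replicate 4 were both low (-0.09 and -0.10). Control replicate 1 and Acot2 mKO replicate 2 were both high (0.06 and 0.08). The other pairs differed in sign: control replicate 3 and Acot2 mKO replicate 3 (-0.01 and 0.11), control replicate 4 and Acot2 mKO replicate 1 (-0.06 and 0.02). What adjacent mice share was not tested.

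The core and the regulatory particle followed a like order, with medians of -0.12 and -0.06 in control replicate 2, 0.12 and 0.09 in Acot2 mKO replicate 3, and -0.08 and -0.10 in Acot2 mKO replicate 4. Within the Acot2 mKO group the 2 libraries rich in slow fibre genes stood at opposite ends. The immunoproteasome subunits did not follow this order: their median was highest in control replicate 2 (0.34) and lowest in Acot2 mKO replicate 1 (-0.31). As single genes these 3 shared no order of their own. Control replicate 4 was highest for 2 of them and control replicate 2 for 0, and each had a different lowest library.

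**Figure D4:**
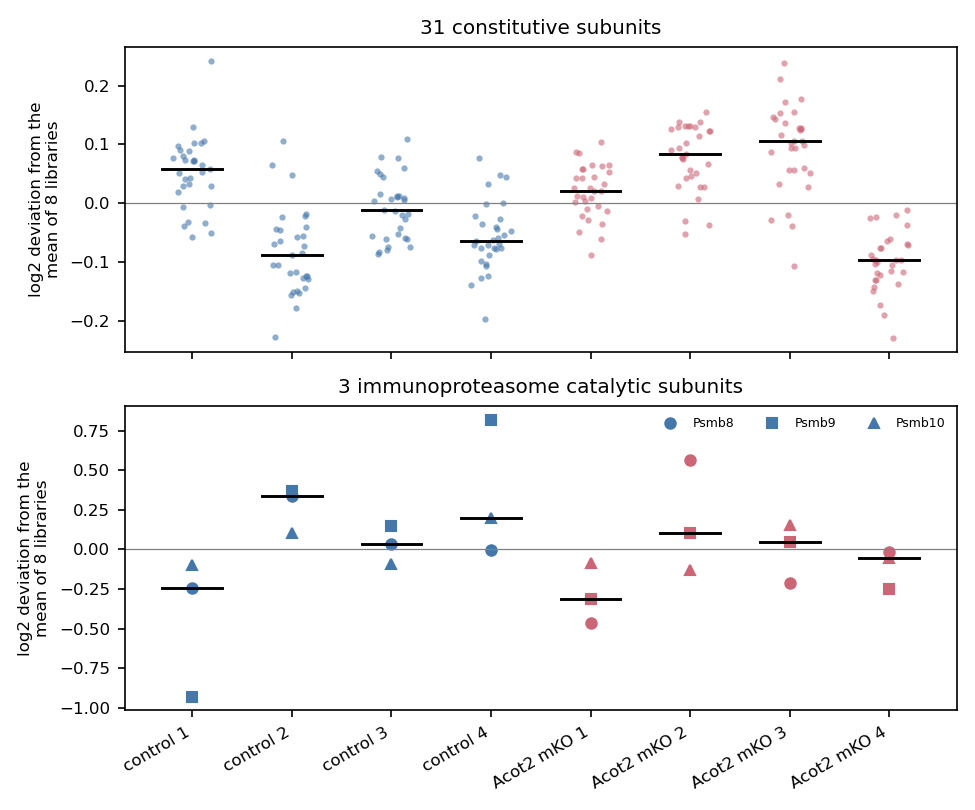
Log2 deviation of each gene from its own mean over the 8 libraries, by library, for the 31 constitutive subunits (top) and the 3 immunoproteasome catalytic subunits (bottom, on a wider axis); black lines are medians. Control replicate 2 and Acot2 mKO replicate 4 lie low for the constitutive subunits and Acot2 mKO replicates 2 and 3 high. The 3 immunoproteasome subunits do not follow this and share no order among themselves.

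Within a genotype the constitutive subunits varied about as much as other genes with as many reads. Their residual SD on the log2 scale had a median of 0.091, against 0.10 over those 2785 genes, of which 41.2% had a smaller one. Of the 31 subunits 19 lay below the median of these genes. The immunoproteasome subunits had a median of 0.35, against 0.26 over the 2931 genes with as many reads as they had. Psmb9 (0.55) and Psmb8 (0.35) lay above that value and Psmb10 (0.14) below it. The largest spread of a constitutive subunit was that of Psmd8 (residual SD 0.18), with 4553 normalized reads in its lowest library, control replicate 2, and 6299 in its highest, control replicate 1.

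Of 9 tested proteasome-associated factors 7 lay above 0 (median 0.017) and 0 passed. Those with the smallest p were Shfm1, the small lid subunit, with a log2 difference of 0.06, Akirin2, which brings proteasomes into the nucleus, with 0.09, and Adrm1, a ubiquitin receptor, with 0.05. The core maturation factor Pomp was at 1468 ± 96.3 and 1485 ± 94.1 normalized reads (SD, n = 4 each).

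Of 14 tested genes of the Nfe2l1 pathway and of substrate delivery, 7 lay above 0 (median 0.0027) and 0 passed. Nfe2l1, the transcription factor that restores proteasome genes when the proteasome is inhibited, was at 15011 ± 554 normalized reads among controls and 15103 ± 424 in Acot2 mKO muscle (SD, n = 4 each). The smallest p values were those of Zfand2a (-0.20), Ngly1 (0.09), the glycanase that activates Nfe2l1, and Nploc4 (-0.09), a cofactor of Vcp.

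Of 6 genes for ubiquitin and its activating enzymes 4 lay above 0 (median 0.04) and 0 passed. Uba6, an activating enzyme, was at 601 ± 26.6 and 643 ± 29.1 normalized reads (SD, n = 4 each; log2 difference 0.10), and Rps27a, a ubiquitin fused to a ribosomal protein, gave 0.07.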

How the data were processed

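Per the labels, RNA of 8 mouse quadriceps samples was extracted with a Norgen kit and sequenced from TruSeq stranded libraries. The submitters' processing notes name STAR, HTSeq, DESeq2, cutadapt, FastQC and build GRCm38 without their roles. For the annotation counted, the sources used here give no name. The deposited values are log2 of x + 1, where x is a read count divided by 1 factor per library, as the values themselves show: 100% of values below 1000 were whole multiples of 1 read (tolerance 0.1). They were used as deposited.

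The genotypes were compared in limma 3.58.1 (R 4.3.3; linear model per gene, variance trend), with Benjamini-Hochberg adjustment over 13638 genes at 0.05. Pair ratios were tested with exact permutation over 70 relabellings. Lengths, positions and overlaps came from GENCODE M21 on GRCm38, promoters from RefSeq. Libraries of a group differed by a chi-square of 26.0 to 79.2 per gene, far above sampling noise, so each counted as 1 replicate. The deposited log2 values carry a pseudocount of 1, which understates changes of genes with few reads; counting error weighs most there.

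Values of every library are given for the 6 catalytic subunits, Psme1, Psme2, Psmf1 and the gene with the smallest p of each role, and levels for the 2 highest and 2 lowest genes of each ring or particle. Up to 3 genes with the smallest p were named in the other lists. Of the genes in these lists, 2 are not reported here; the list counts include them. Psme4, Psmd4, Psmd8, Psmd9, Psmd10, Psmd14, Psmg3, Pomp, Nfe2l1 and the genes at the ends of a role's range were named after their values were seen. The genes and lists were chosen with earlier results of these data known. Alternatives were other pseudocounts, filters and scalings, library weights, limma-voom, blocking by adjacent animal number, and sets without 1 or 2 libraries.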

Additional observations from a re-analysis of the deposited data

Results flagged for a closer look

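Psmb1, a non-catalytic beta subunit, had 2174 normalized reads in Acot2 mKO replicate 4, while the other 3 Acot2 mKO libraries lay between 2525 and 2560. The gap to the nearest of them was 0.91 of the group's range, above the critical value of Dixon's test at the 95% level. Among 100 groups of 4 values examined in this way 1 stood out, where chance gives about 1 in 20.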

How the results depend on the processing

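Under the 19 alternatives, limma or limma-voom called 2 genes of the whole table each time and 0 proteasome genes, whose smallest adjusted p in any fit was 0.8999. The fit blocked by adjacent animal number was among the 19, but its values for single genes are not given. In no fit did more than 2 proteasome genes have an unadjusted p under 0.05. Leaving out single libraries gave 0 to 2 proteasome genes with an unadjusted p under 0.05: Psmb2 and Psmc3 without Acot2 mKO replicate 4, and Psmb9 without control replicate 1. Without Acot2 mKO replicates 3 and 4 there was 1 (Psmg1), and without control replicates 2 and 3 there was 1 (Psmg3). The immunoproteasome subunits below 0 numbered 1 to 3 when single libraries were left out; without control replicate 4, Psmb10 and Psmb9 turned above 0. The Psmb8 to Psmb5 ratio turned to 0.011 without control replicates 2 and 3. The cause was not tested.

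Of the 47 genes, 3 turned their sign under another setting that kept all libraries. Psmc1 turned to -0.0023 with quantile normalization and Psme1 to -0.046 with library weights. Psmd11 turned to 0.0040 with scaling to library totals and to 0.014 with library weights. With single libraries left out 21 turned, over these ranges of the log2 difference. These were Psmb9 -0.55 to 0.037, Psmb8 -0.26 to 0.079, Psmd7 -0.023 to 0.066, Psmb10 -0.12 to 0.0024, Psmc1 -0.023 to 0.052, Psme1 -0.054 to 0.089 and Psmd2 -0.024 to 0.058. Next came Psmd3 -0.061 to 0.019, Psmd13 -0.011 to 0.064, Psma4 -0.021 to 0.059, Psma5 -0.010 to 0.072, Psma6 -0.0027 to 0.087, Psmd8 -0.016 to 0.14 and Psmd6 -0.0071 to 0.11. The others were Psmg3 -0.0071 to 0.40, Psmd9 -0.0039 to 0.15, Psmd11 -0.055 to 0.023, Psmg4 -0.067 to 0.25, Psmd1 -0.060 to 0.016, Psme4 -0.077 to 0.047 and Psmg2 -0.098 to 0.013. Constitutive subunits lay between -0.061 and 0.15 in these settings, not counting those without 2 libraries.

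Depth limits the genes with few reads: Psmc3ip, Psmb9, Psmg3 and Psmg4 had under 100 normalized reads in every library.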
